A study of Macaca fascicularis with 25 samples.

Results

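The comparison described here sets regions of the embryonic disc against regions labelled exmc in Day 18 embryos of the cynomolgus monkey, Macaca fascicularis. It used 12 of the 25 bulk RNA-seq libraries of the series. The disc side held 6 libraries, 3 labelled hypoblast and 3 labelled epiblast, which were pooled for this comparison, and the other side held 6 libraries labelled exmc. Embryos together with decidua were frozen and sectioned, regions of about 20 cells were taken by laser microdissection on their putative identity, and their RNA was turned into libraries by Smart-seq2, which copies whole transcripts from the input of a few cells. The labels name no treatment, genotype or strain, and do not tie any region to an embryo. If regions of a side share an embryo that gave none to the other side, p-values over regions are too small. If embryos gave regions to both sides, tests that ignore this pairing can give p-values that are too large. Which of these holds is not known for any test below. The series' stated interest is what determines the embryonic and extraembryonic lineages of the primate embryo.

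The epiblast is the layer of the disc that gives rise to the embryo proper, and the hypoblast beneath it contributes to the yolk sac. The labels leave exmc unexpanded. In this field the term stands for extraembryonic mesenchyme, a loose, matrix-rich tissue that lines the cavities around the primate embryo early in gestation and takes part in forming the chorion, the yolk sac wall and the connecting stalk. The labelled identities could not be checked against marker genes, because the table lists Ensembl identifiers that the files pair with no symbols, and 0 of these 28592 identifiers matched the RefSeq gene table. Genes are therefore named by identifier. A region of tissue yields the same bulk signal from fewer cells of a type as from less RNA per cell, and these cannot be told apart.

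The most abundant gene took a larger part of the RNA in exmc than in disc regions. The same identifier, ENSMFAG00000000004, ranked first in all 12 libraries, and its function is not given in the files. It took 6.28%, 6.22% and 6.26% of counts in hypoblast libraries 1, 2 and 3, and 10.7%, 6.99% and 8.47% in epiblast libraries 1, 2 and 3. In exmc libraries 1 to 6 it took 11.1%, 10.7%, 32.2%, 12.9%, 13.9% and 11.7%. The 3 hypoblast values lay within 0.1 percentage points of each other, exmc library 3 stood far above the rest, and the sides met only at epiblast library 1 and exmc library 2.

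The mean share was 7.49% ± 1.80 (SD, n = 6) in disc and 15.4% ± 8.32 (SD, n = 6) in exmc. The means lay -7.94 percentage points apart (exact permutation test, two-sided, p = 0.00433, adjusted p = 0.0152 over 7 library measures). In size this was above the SD of disc but below that of exmc. The difference did not rest on exmc library 3 alone, as it was -4.58 points without that library (exact permutation p = 0.00866). Leaving out exmc libraries 1 and 4, which were the least like the others, gave -9.64 points (exact permutation p = 0.0190, adjusted p = 0.0667), so the adjusted call was lost with 4 exmc libraries. Within a replicate number, whose meaning the labels do not give, the hypoblast and epiblast libraries together gave the gene 8.16%, 6.52% and 7.07% for numbers 1, 2 and 3, against 11.1%, 10.7% and 32.2% in the exmc library of that number. All 3 numbers thus showed the lower share in disc.

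The excess in exmc was mostly that of this one gene. The 10 most abundant genes of each library took 13.5% ± 2.31 (SD, n = 6) of counts in disc and 23.6% ± 10.3 (SD, n = 6) in exmc (exact permutation p = 0.00433, adjusted p = 0.0152 over 7 library measures). The genes ranked 2 to 10 took 6.02% ± 0.958 in disc and 8.13% ± 2.29 in exmc, which did not pass (SD, n = 6 each, exact permutation p = 0.0563). The genes ranked 11 to 100 took 15.7% ± 1.08 in disc and 13.7% ± 3.67 in exmc (SD, n = 6 each, exact permutation p = 0.268). Both of these shares differed without exmc libraries 1 and 4, at 8.83% ± 2.07 (SD, n = 4) in exmc for ranks 2 to 10 and 12.03% ± 2.56 (SD, n = 4) for ranks 11 to 100 (exact permutation p = 0.0190 for each, unadjusted). These 2 rank classes were chosen after the shares of the most abundant genes had been seen.

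Disc libraries were also deeper than exmc libraries. They held 5455589 to 10462278 counts, and exmc libraries held 2909114 to 6757471 (exact permutation p = 0.0346, adjusted p = 0.0606 over 7 library measures). After thinning every library to 2909114 counts, the difference in the share of the most abundant gene was -7.94 percentage points (exact permutation p = 0.00433). The number of genes with a count above 0 was 15551 ± 1025 (SD, n = 6) in disc and 15106 ± 2282 (SD, n = 6) in exmc, a difference within the spread (exact permutation p = 0.671). In the thinned libraries the numbers were 14901 ± 854 and 14718 ± 2086 (SD, n = 6 each, exact permutation p = 0.844). Exmc regions held both the fewest detected genes, 11777 in library 1, and the most, 18034 in library 6. The exmc mean without libraries 1 and 4 was 16353 ± 1412 (SD, n = 4) and lay above that of disc, again within the spread (exact permutation p = 0.343).

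**Figure D1:**
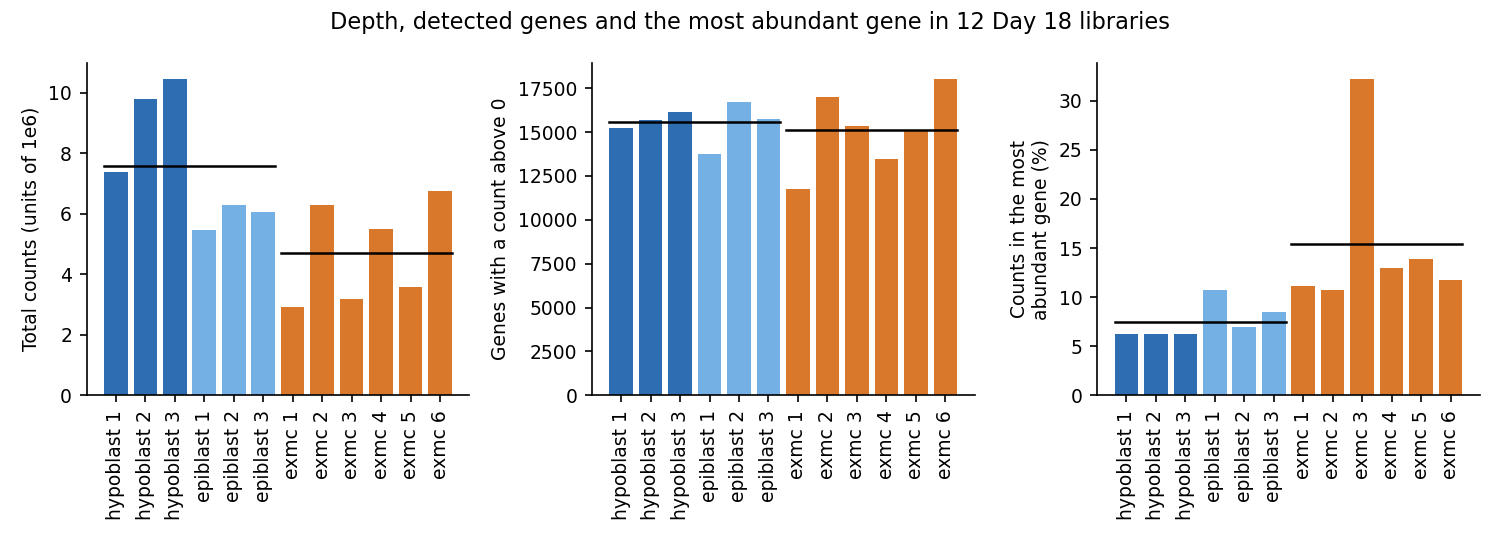
Total counts (axis in units of 1e6), genes with a count above 0, and the percentage of counts in the most abundant gene for each of the 12 libraries (bars), with the mean of each side as a black line. Hypoblast is dark blue, epiblast light blue and exmc orange. Disc libraries gave the most abundant gene 6.22% to 10.7% of counts and exmc libraries 10.7% to 32.2%, while detected genes overlapped between the sides.

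Over all genes, the sides did not form separate sets of libraries. The mean Spearman correlation of log2 CPM (read counts scaled to a common library size) over 12640 genes was 0.800 among disc libraries, 0.657 among exmc libraries and 0.721 between the sides. Correlations within a side exceeded those between sides by 0.00716 (exact permutation test over 924 arrangements of the 12 libraries, two-sided, p = 0.595). After thinning to one depth the excess was 0.00911 (exact permutation p = 0.528), and without exmc libraries 1 and 4 it was 0.00676 (exact permutation p = 0.762). It depended on single libraries, reaching 0.0330 without exmc library 2 (exact permutation p = 0.0476) and -0.0144 without hypoblast library 2 (exact permutation p = 0.364). For 6 of the 12 libraries the most similar library was one of the same side.

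Single libraries crossed the sides. Exmc library 2 correlated with hypoblast library 2 at 0.902 and with epiblast library 2 at 0.926, higher than with any other exmc library, the highest of which was exmc library 3 at 0.851. Exmc libraries 1, 5 and 6 were likewise most similar to a disc library, and the nearest library of hypoblast library 1 and of epiblast library 1 was an exmc library. Exmc library 4 had the lowest mean correlations, 0.560 with disc and 0.526 with the other exmc libraries. Exmc library 1 followed with 0.613 and 0.594. All 6 exmc libraries had a higher mean correlation with disc libraries than with the other exmc libraries. Each of these exmc means takes in exmc library 1, exmc library 4 or both, and no disc mean does, so the comparison is uneven. With exmc libraries 1 and 4 left out, the means among exmc libraries and between the sides were close, at 0.798 and 0.8005.

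**Figure D2:**
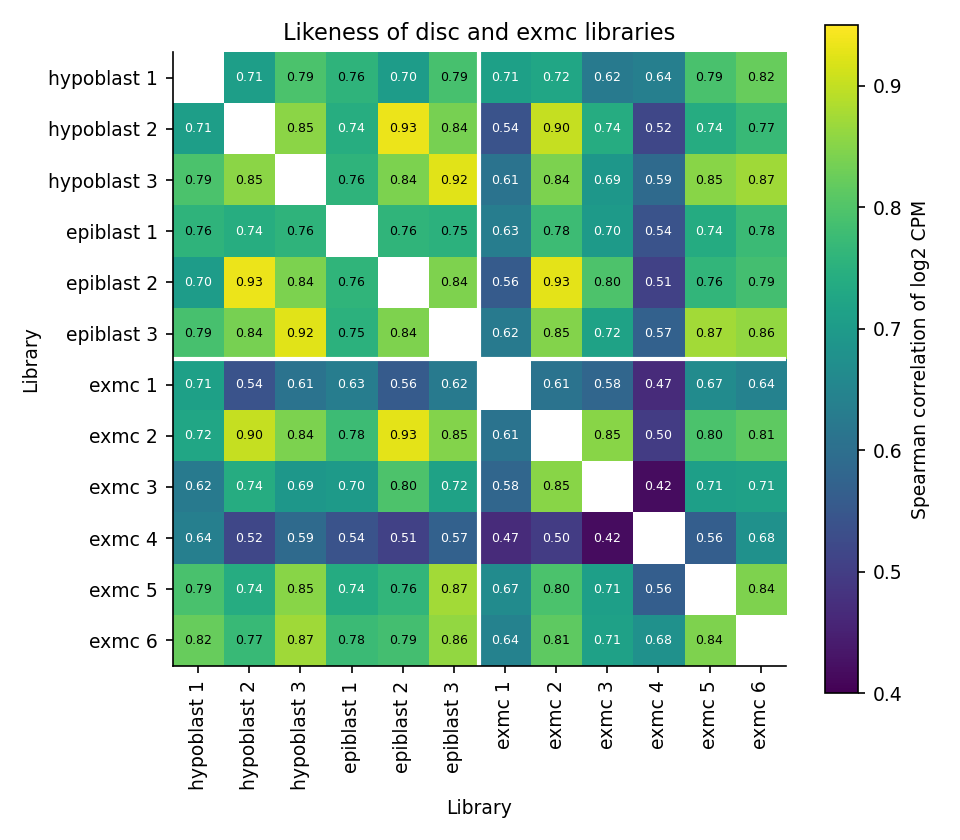
Spearman correlation of log2 CPM for each pair of the 12 libraries, with white lines between disc (hypoblast and epiblast) and exmc. Exmc library 4 has the lowest values, 0.42 to 0.68, and exmc library 2 reaches 0.90 and 0.93 with the disc libraries that carry its number.

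Values of single genes spread more between the 6 exmc libraries than between the 6 disc libraries, a description with no test. For the 7448 genes that averaged 20 CPM or more, the median SD of log2 CPM was 0.579 in disc and 1.05 in exmc, and 81.7% of genes had the larger SD in exmc. After thinning to one depth the medians were 0.577 and 1.04. Leaving out exmc libraries 1 and 4 brought the exmc median to 0.596, which dropping the least similar libraries must lower. Then 50.1% of genes had the larger SD in exmc. The same removal in disc, of hypoblast library 1 and epiblast library 1, brought its median to 0.406. With the 2 least similar libraries of each side left out, 70.2% of genes had the larger SD in exmc. The disc libraries kept were then hypoblast and epiblast libraries 2 and 3, which correlated at 0.93 and 0.92 within a number. The exmc libraries kept share no number, so the sides were not alike in this.

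No gene passed the test between disc and exmc. In edgeR's quasi-likelihood test, with Benjamini-Hochberg adjustment at 0.05, 0 of 12640 genes (0%) were called. The lowest adjusted p of any gene was 0.635. At an unadjusted p under 0.05 there were 365 genes higher in disc (2.89% of those tested) and 514 higher in exmc (4.07%), together 879 (6.95%). Where no gene differs, a share of about 0.05 passes this cut by chance. Estimated differences were often large without passing. Of the genes tested, 1760 were estimated more than 2-fold and 431 more than 4-fold higher in exmc, against 931 and 71 higher in disc.

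The direction of these differences turned with exmc library 4. Of the genes at an unadjusted p under 0.05, 620 were higher in disc and 509 in exmc without this library, whereas without exmc library 1 they were 416 and 534. When both were left out, edgeR again called 0 genes, and of 1177 genes at an unadjusted p under 0.05, 661 were higher in disc and 516 in exmc. The share higher in disc was thus 56.2%, where it was 41.5% over all 12 libraries. Of the 879 genes, 444 had an unadjusted p under 0.05 in the same direction in this smaller set of libraries. These were 278 of the 365 higher in disc and 166 of the 514 higher in exmc. After thinning to one depth 0 genes were called, and 753 of the 801 genes still tested kept an unadjusted p under 0.05 and their direction. With hypoblast and epiblast libraries of one number summed, so that disc had 3 libraries, 340 of 14365 genes (2.37%) were at that p and 0 were called. Of the 340, 250 were among the 879 and in the same direction.

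Among genes at an unadjusted p under 0.05, those higher in disc outnumbered those higher in exmc from 100 CPM upwards and were outnumbered between 5 and 100 CPM, a description with no test. Among the 208 genes averaging 500 CPM or more, the median log2 fold change, disc over exmc, was 0.19, and 28 were higher in disc and 12 in exmc at an unadjusted p under 0.05. Among the 1625 genes of 100 to 500 CPM these numbers were 160 and 109, with a median of -0.01. The 5615 genes of 20 to 100 CPM had 133 higher in disc and 279 in exmc and a median of -0.15, and the 3748 genes of 5 to 20 CPM had 30 and 101 and a median of -0.20. The median over all genes tested was -0.12. With DESeq2's size factors in place of TMM the lean to disc narrowed, to 19 against 14 genes at 500 CPM or more and 135 against 130 at 100 to 500 CPM.

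The lean to exmc between 5 and 100 CPM was not seen without exmc libraries 1 and 4, and the lean to disc from 100 CPM upwards was. Genes of 20 to 100 CPM then gave 316 higher in disc and 280 in exmc, and genes of 5 to 20 CPM gave 63 and 66. The 1444 genes under 5 CPM went the other way, from 14 and 13 over all 12 libraries to 5 and 17. Genes of at least 500 CPM gave 41 and 12, with a median log2 fold change of 0.37. Zero counts changed too. For genes of 5 to 20 CPM, 4.60% of values in disc and 11.2% in exmc were 0, and without these 2 libraries 3.80% of exmc values were. Their part in the result was not tested.

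**Figure D3:**
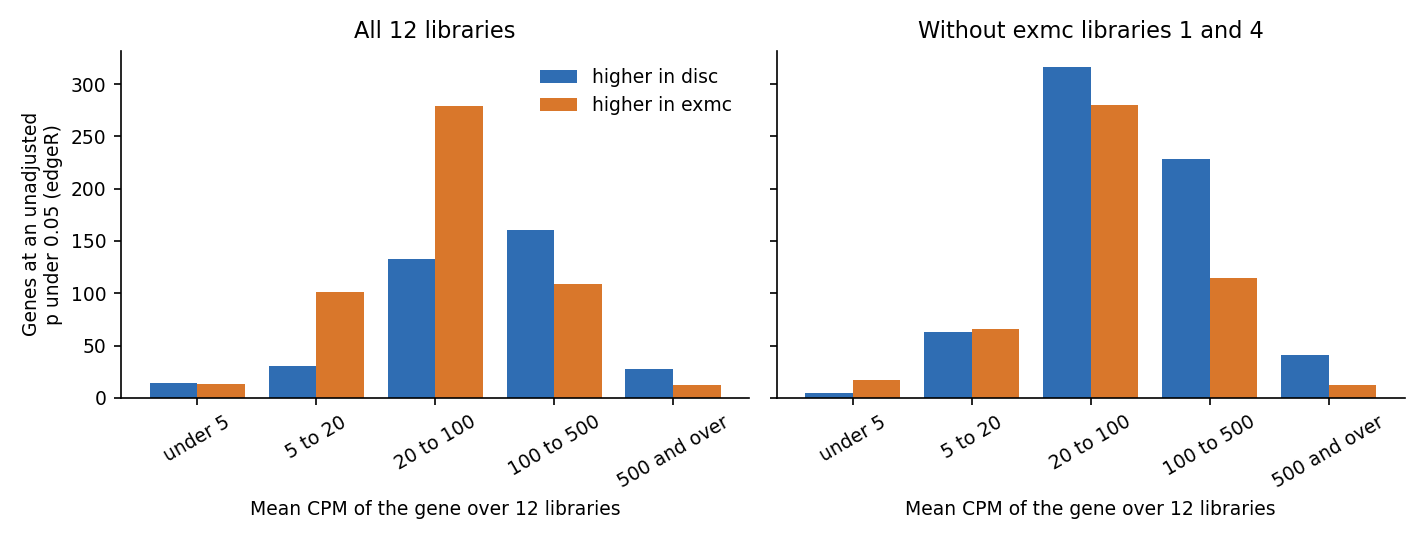
Number of genes at an unadjusted p under 0.05 in edgeR by mean CPM of the gene, higher in disc (blue) or in exmc (orange), over all 12 libraries (left) and without exmc libraries 1 and 4 (right). Genes of 20 to 100 CPM change from 133 against 279 to 316 against 280, and genes of at least 500 CPM keep more genes higher in disc in both panels.

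A count that uses no model gave few genes that part the sides. Of the 7448 genes averaging 20 CPM or more, 58 were higher in every disc library than in any exmc library (0.779%) and 19 were lower (0.255%). The 58 genes had a median of 131 CPM and the means of the sides differed by 1.44-fold to 5.28-fold, with a median of 2.10-fold. The 19 genes had a median of 61.8 CPM and a median fold of 2.11. Gaps between the sides were narrow, since the lowest disc library exceeded the highest exmc library by a median of 1.09-fold in the former and the reverse gap was 1.07-fold in the latter.

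More genes met the criterion when exmc libraries that stood apart were left out, though leaving out any library relaxes the criterion. The rise was not particular to these libraries. Both directions together gave 180 genes (2.44%) without exmc library 4 and 113 (1.53%) without exmc library 1. They gave 170 (2.29%) without hypoblast library 1 and 176 (2.38%) without epiblast library 1. The cause of the rise was not tested. There were 176 genes higher (2.41% of 7291) and 70 lower (0.960%) in disc without exmc libraries 1 and 4. Thinning to one depth left the counts at 57 (0.768% of 7419) and 21 (0.283%), of which 48 and 16 were among the 58 and 19. No gene was detected in all 6 disc libraries and in no exmc library, or the reverse, with or without thinning. Without exmc libraries 1 and 4, 17 of the 22555 genes with a count in any library had counts in all 4 exmc libraries and in none of disc. The reverse, counts in all 6 disc libraries and in none of these 4, held for 0. It asks for counts in more libraries, so the 2 numbers are not alike.

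Within disc, the layers overlapped for most of these genes. The hypoblast mean exceeded the epiblast mean for 47 of the 58 genes (81.0%), where it did so for 54.1% of all 7448 genes, and no test was made of this difference. All 3 hypoblast libraries exceeded all 3 epiblast libraries for 6 of the 58 (10.3%, against 5.06% of all genes), and the reverse held for 2 (3.45%, against 4.59%). For the 19 genes low in disc the hypoblast mean was above the epiblast mean in 11 (57.9%).

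The genes named here are the 2 per direction with the smallest unadjusted p among those 77. They were picked on these values, so their statistics describe them and support nothing further. All 4 had an edgeR adjusted p of 0.635.

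ENSMFAG00000045818 was the first of the genes high in disc. It had 153, 656 and 362 CPM in hypoblast libraries 1, 2 and 3, and 225, 403 and 290 CPM in epiblast libraries 1, 2 and 3. In exmc libraries 1 to 6 it had 28.0, 144, 35.3, 24.0, 75.9 and 88.9 CPM. The lowest disc value, in hypoblast library 1, lay just above the highest exmc value, in exmc library 2. The mean was 348 CPM ± 176 (SD, n = 6) in disc and 66.0 CPM ± 46.4 (SD, n = 6) in exmc, 5.28-fold lower, with a log2 fold change of 2.40 (SE 0.498). Without exmc libraries 1 and 4 the exmc mean was 85.9 CPM ± 44.7 (SD, n = 4) and the log2 fold change 2.02. Limma voom gave this gene an adjusted p of 0.194 and DESeq2 one of 0.00716, with 0.0241 without exmc libraries 1 and 4 and 0.0217 after thinning. Libraries labelled others, the remaining Day 18 group, ran from 42.3 to 280 CPM and so covered parts of both sides.

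ENSMFAG00000043640, also high in disc, had a smaller difference with less spread. It stood at 258, 530 and 472 CPM in hypoblast libraries 1, 2 and 3 and at 297, 420 and 521 CPM in epiblast libraries 1, 2 and 3. In exmc libraries 1 to 6 it had 126, 235, 105, 111, 209 and 203 CPM. Hypoblast library 1 was again the lowest of disc and exmc library 2 the highest of exmc. The means were 416 CPM ± 115 (SD, n = 6) in disc and 165 CPM ± 57.2 (SD, n = 6) in exmc, a 2.53-fold difference, with a log2 fold change of 1.34 (SE 0.312). Without exmc libraries 1 and 4 it was 1.15 and after thinning 1.32. The adjusted p was 0.194 in limma voom and 0.0269 in DESeq2, where it became 0.125 without exmc libraries 1 and 4 and 0.0511 after thinning, so the DESeq2 call was lost in both. Hypoblast and epiblast had close means of this gene, 420 CPM ± 144 (SD, n = 3) and 413 CPM ± 112 (SD, n = 3).

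Among the genes high in exmc, ENSMFAG00000032999 came first. It had 36.8, 15.2 and 30.5 CPM in hypoblast libraries 1, 2 and 3, and 26.1, 30.5 and 18.8 CPM in epiblast libraries 1, 2 and 3. Exmc libraries 1 to 6 had 153, 47.4, 190, 101, 54.8 and 38.7 CPM. Exmc libraries 1, 3 and 4 were high, and the other 3 lay close above the disc range. The means were 26.3 CPM ± 8.05 (SD, n = 6) in disc and 97.3 CPM ± 62.1 (SD, n = 6) in exmc, 3.70-fold higher, with a log2 fold change, disc over exmc, of -1.88 (SE 0.448). Without exmc libraries 1 and 4 it was -1.64. Limma voom gave an adjusted p of 0.228 and DESeq2 one of 0.0194, which became 0.135 without exmc libraries 1 and 4, where the call was lost, and 0.0415 after thinning. Libraries labelled others, again scaled over all 25 libraries, had 28.5 to 41.8 CPM, roughly near the disc range.

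ENSMFAG00000034267 showed how far 1 exmc library could carry a value. Outside exmc library 4 it had at most 15.9 CPM, in exmc library 1. Its mean thus reached the required 20 CPM only through exmc library 4. This gene was counted among those without overlap, and named, only because of that library. Its counts were 26, 23 and 36 in hypoblast libraries 1, 2 and 3 and 0, 18 and 5 in epiblast libraries 1, 2 and 3. In exmc libraries 1, 2, 3, 5 and 6 they were 46, 73, 21, 12 and 39, and in exmc library 4 they were 15258, or 4582 CPM. The lowest exmc value, 3.34 CPM in library 5, lay barely above the highest disc value of 3.25 CPM in hypoblast library 1. The log2 fold change was -8.55 (SE 2.11) with all libraries, -2.06 when exmc library 4 was left out and -1.76 with neither exmc library 1 nor 4 (edgeR unadjusted p = 0.0944, adjusted p = 0.636). Without these 2 libraries the exmc mean was 6.92 CPM ± 3.05 (SD, n = 4) against 2.01 CPM ± 1.33 (SD, n = 6) in disc.

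**Figure D4:**
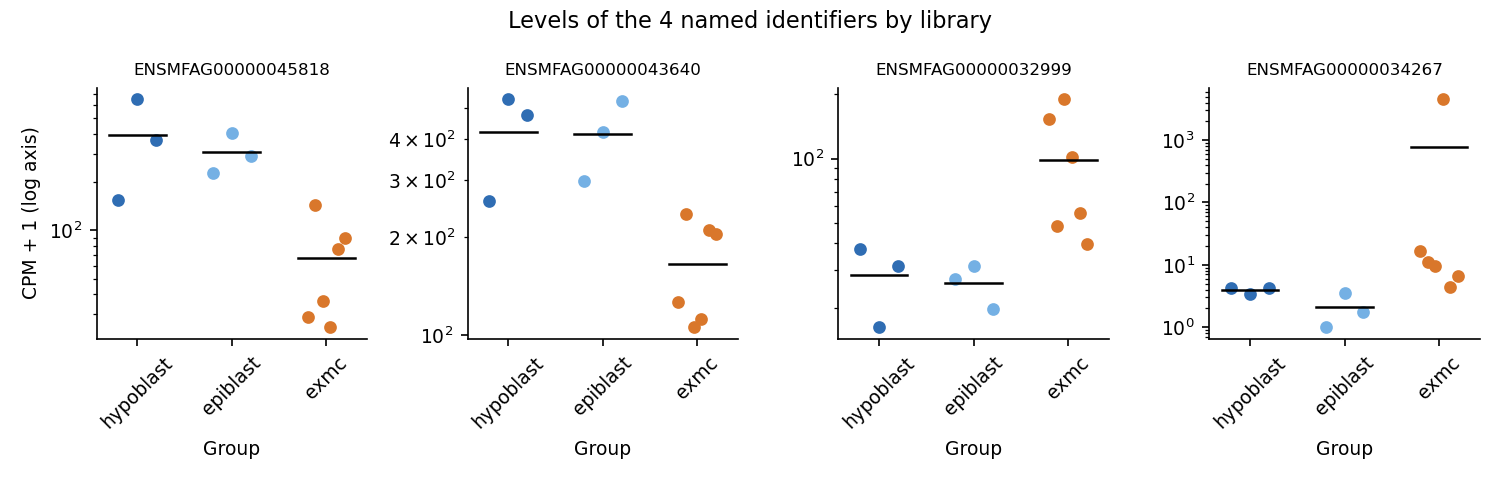
CPM + 1 on log axes, with a different range in each panel, of the 4 named identifiers in each library (points) and the mean of hypoblast, epiblast and exmc (black lines). The 2 genes on the left are higher in every disc library, the 2 on the right in every exmc library, and exmc library 4 lies far above all others at 4582 CPM in the last panel.

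Other tools did not give one set of genes. Limma voom with sample quality weights, which gave exmc libraries 4 and 1 the lowest weights (0.232 and 0.308), called 0 genes. Its smallest adjusted p was 0.194, and of 1639 genes at an unadjusted p under 0.05, 973 were higher in disc and 666 in exmc, the reverse of the lean in edgeR over the same 12 libraries. In edgeR the lean was also to disc with the number of detected genes as a covariate, at 478 against 320. DESeq2 called 96 of the 14991 genes to which it gave an adjusted p, 14 higher in disc and 82 higher in exmc. For 54 of them, 1 library outweighed the sum of the rest of the higher side in CPM, and that library was exmc library 4 for 29 and exmc library 1 for 13. Only 16 of the 96 had library ranges without overlap. DESeq2 without exmc libraries 1 and 4 called 33 of 16488 such genes, 18 higher in disc and 15 in exmc. Of the 33, 14 were among the 96. A single library then outweighed the rest in 6 of the 33, and 28 had ranges without overlap. After thinning DESeq2 called 32 of 13616 such genes, of which 27 were among the 96.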

How the data were processed

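The authors deposited 1 table of read counts per Ensembl gene identifier for 25 libraries. STAR 2.3.4 and RSEM are named, per the submitters' processing notes, with no role. Build, annotation and use of strand are not stated there or in the labels, so genes that overlap or have close copies may be miscounted. Groups came from the labels. Depth was 2909114 to 10462278 counts in the 12 libraries compared. No pair of these was a second deposit, with a chi-square per gene of 31.3 to 364 over 66 pairs.

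Counts were tested with edgeR 4.0.16 in R 4.3.3 (filterByExpr by side, TMM, glmQLFit and glmQLFTest, two-sided, Benjamini-Hochberg over all genes tested) on 12 libraries, and the code was tested on simulated data. CPM are TMM-scaled over genes kept by the filter, with a prior count of 2 for log2 CPM. For the named genes, CPM of libraries labelled others were scaled over all 25 libraries. Library measures were tested by exact permutation (scipy 1.17.1). Alternatives were DESeq2 1.42.0, limma 3.58.1 (voom with quality weights), other scaling, filters and covariates, 3 group means, all 16 Day 18 libraries, a replicate block, thinning without replacement to the lowest total, and leaving out libraries. Identifiers named are the 2 per direction with the smallest unadjusted p among genes of at least 20 CPM without overlap. ENSMFAG00000000004 was named besides, after its values were seen. The members, comparison and tests were chosen with earlier results of these data known. Gene lists and cell type markers were set up by symbol and could not be read. Summed layers, rank classes 2 to 10 and 11 to 100, the removal of disc libraries from the spread, and the alternatives of the share of the most abundant gene were added after seeing the data.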

Additional observations from a re-analysis of the deposited data

Results flagged for a closer look

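Values far from the rest of their side were searched for in 22 sets of 6 libraries, and 3 were found, all in exmc. Chance gives about 1.10, but some sets overlapped or were chosen on their values, so 3 and 1.10 cannot be compared. The 10 most abundant genes include the first, and ENSMFAG00000034267 was named only because of exmc library 4. Exmc library 3 gave 32.24% of its counts to ENSMFAG00000000004, where the next highest exmc library gave 13.9%, and 43.98% to its 10 most abundant genes. Exmc library 4 had 4582 CPM of ENSMFAG00000034267, where the next highest exmc library had 15.9 CPM. Their causes were not tested.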

How the results depend on the processing

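EdgeR and limma voom called 0 genes under every alternative run, while DESeq2 called 96, with 33 without exmc libraries 1 and 4 and 32 after thinning. The 879 genes at an unadjusted p under 0.05 became 1729 in DESeq2, 1639 in limma voom, 3405 with no filter on low counts and 1656 with all 16 Day 18 libraries. Without exmc libraries 1 and 4 they were 1733 in limma voom (12.7%) and 1858 in DESeq2 (8.59%), and after thinning 1504 (13.5%) and 1530 (7.26%). Summing same-numbered disc libraries gave 340 (2.37%). Leaving out 1 library gave 528 (4.06%), without hypoblast library 2, to 1129 (8.64%), without exmc library 4. The cause was not tested. With the replicate number as a replicate block edgeR called 0 genes, with 1942 (15.4%) at that p, 1086 of them higher in disc. Numbers 4, 5 and 6 occur in exmc only, so those exmc libraries added nothing to the difference between the sides in this fit. It set the disc libraries against exmc libraries 1, 2 and 3. The numbers were not taken to pair disc with exmc, which asked for a correlation over 0.1 in every pair of departures from the group mean. These were 0.291 and 0.157 (hypoblast and epiblast against exmc) for number 1, 0.550 and 0.437 for number 2, and -0.0624 and -0.199 for number 3. For 2 of 6 disc libraries the closest of the exmc libraries was the one of their number. For 5 of 6 disc libraries the closest library of the other disc layer was the one of their number. Hypoblast and epiblast departures correlated at 0.275, 0.524 and 0.337 for numbers 1, 2 and 3. The 77 genes without overlap (1.03% of 7448) became 246 (3.37%) without exmc libraries 1 and 4, and 238 (3.27%) after thinning as well. They were 80 (1.07%) to 180 (2.44%) when 1 library was left out. They exceeded 1.5 times 77 without hypoblast library 1 (170), epiblast library 1 (176) and exmc libraries 2 (135), 4 (180) and 5 (117). Every setting that left out 1 library had as many libraries to part, and why the counts differed was not tested. The excess of correlations within sides ranged from -0.0144 to 0.033 when 1 library was left out. It was negative at -0.0144, -0.0102, -0.004, -0.0106 and -0.0078 without hypoblast library 2, hypoblast library 3 and epiblast libraries 1, 2 and 3. The difference in detected genes turned from 444.7 to -801.8, disc minus exmc, without exmc libraries 1 and 4. The difference in the share of the most abundant gene ranged from -8.89 to -4.58 percentage points when 1 library was left out, and with same-numbered disc libraries summed and without exmc libraries 1 and 4 it was -9.88 (exact permutation p = 0.0571). The 4 identifiers picked by rule kept their direction in all 131 combinations of identifier and alternative that gave a value. They were picked for library ranges without overlap, so their direction could hardly change and this lends them no support. Depth limits genes of few counts most, as the shallowest exmc library held 2909114.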

Other observations

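The genes that part disc from exmc were read in the 13 libraries outside the comparison, with no test. For each of the 58 genes higher in every disc library, a library was placed on the disc or the exmc side of the midpoint between the 2 mean log2 levels. Libraries 1, 2 and 3 labelled others lay on the disc side for 89.7%, 89.7% and 81.0% of these genes, and library 4 for 50%. At Day 20, libraries 1, 2 and 3 of set E20_1 did so for 91.4%, 89.7% and 96.6% and library 4 for 37.9%. Set E20_2 had 51.7%, 50%, 46.6% and 13.8% in its libraries 1 to 4, and the Day 16 library 32.8%. Libraries of one set thus differed widely, and the labels give no lineage for those of Day 16 and Day 20. The share over all genes is not given beside these, so they cannot be called particular to the 58 genes. For the 19 genes lower in disc, libraries 1 to 4 labelled others lay on the disc side for 52.6%, 42.1%, 73.7% and 47.4%. Over all 13 libraries the shares for these 19 genes ran from 21.1% to 84.2%, and the set is too small to say more.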
